A study of Homo sapiens with 24 samples.

Results

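The genes described here encode the respiratory chain and the ATP synthase. They were chosen by symbol: the NDUF subunit genes of complex I, the SDH genes of complex II, and the named UQCR, COX and ATP5 subunit genes of complexes III, IV and V, together with the protein-coding genes of the mitochondrial genome. The rule found 87 of the 60563 named genes in the count table, of which 74 were nuclear and 13 were mitochondrial. Of the nuclear genes 36 belonged to complex I, 4 to complex II, 8 to complex III, 11 to complex IV (NDUFA4 counted among them) and 15 to complex V.

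NCI-H1299 cells come from a human lung carcinoma of the non-small cell kind and make no p53 of their own. The study introduced a plasmid for either of the p53 isoforms Δ133p53α or Δ133p53β, which lack the first part of the protein, and grew single clones. RNA-seq of poly(A) RNA was available for 24 libraries: 4 of a line carrying the control plasmid, and 4 each of the clones Δ133p53α1, Δ133p53α2, Δ133p53α8, Δ133p53β5 and Δ133p53β10. All 6 lines share the H1299 background and a plasmid, each isoform line is 1 clone, and the control is 1 line, so clone and isoform can be separated only as far as 3 α clones and 2 β clones allow. Nothing in the labels says that the 4 libraries of a line came from separate cultures, so p-values measure only the spread between these libraries. One library titled as a Δ133p53β10 sample stands under Δ133p53β5 in the header of the count table. The sample titles would give 3 libraries to Δ133p53β5 and 5 to Δ133p53β10. It was counted as Δ133p53β5 replicate 4, and results that rest on it are given both ways.

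Oxidative phosphorylation couples electron transfer from NADH and succinate to oxygen with the pumping of protons, and the ATP synthase uses the returning protons to make ATP. Complexes I, III, IV and V are assembled from subunits of both genomes, and complex II from nuclear subunits only. The mitochondrial genes are transcribed as long polycistronic RNAs that are cut at the transfer RNAs, so that their levels depend on processing and stability as well as on transcription. Many nuclear subunit genes have short transcripts and share promoter motifs such as those of NRF1, the ETS family and YY1.

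The promoters of 3 genes are shown as examples of genes that passed the test in the β clones and hold one of these motifs. RefSeq promoter windows (GRCh38.p14) of 300 bases matched 61 of the 74 nuclear genes. The NRF1 motif was found on either strand in 24.6% of these 61 promoters and in 5.78% of all 35116 promoters of the same length. CCGGAAG, the ETS motif, stood in 31.1% against 10.3%, and the YY1 motif in 6.56% against 0.849%. The ETS and YY1 motifs can overlap by their AAG. Of the other nuclear genes that passed the test in a comparison, ATP5MG (ETS), UQCRFS1 (NRF1) and NDUFS4 (YY1) also held a motif. NDUFB3, NDUFB1, ATP5PB and UQCRC2 held none of these motifs. A match is a description of the letters only. The sequences below run 5′ to 3′ and hold the 250 bases before the RefSeq start, with the motif in capitals. They lie on the plus strand at chrX:119871582-119871831 (NDUFA1, ETS on the opposite strand), chr5:132866392-132866641 (UQCRQ, ETS) and chr10:7787927-7788176 (ATP5F1C, NRF1).
NDUFA1: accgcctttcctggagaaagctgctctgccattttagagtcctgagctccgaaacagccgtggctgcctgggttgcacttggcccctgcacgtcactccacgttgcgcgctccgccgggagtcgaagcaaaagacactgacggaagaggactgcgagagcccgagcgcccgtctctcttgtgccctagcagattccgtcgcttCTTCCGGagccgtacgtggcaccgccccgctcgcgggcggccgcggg
UQCRQ: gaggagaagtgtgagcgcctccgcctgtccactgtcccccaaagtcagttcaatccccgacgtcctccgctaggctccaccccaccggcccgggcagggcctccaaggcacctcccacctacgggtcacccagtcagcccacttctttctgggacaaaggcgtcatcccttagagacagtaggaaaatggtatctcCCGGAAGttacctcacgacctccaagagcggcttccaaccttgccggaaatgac
ATP5F1C: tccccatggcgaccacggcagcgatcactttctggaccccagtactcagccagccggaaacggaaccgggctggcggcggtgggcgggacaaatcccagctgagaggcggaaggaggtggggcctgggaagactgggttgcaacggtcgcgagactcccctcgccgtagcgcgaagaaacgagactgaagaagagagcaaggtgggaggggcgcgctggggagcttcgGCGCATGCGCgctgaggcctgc

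The libraries held 21531599 to 25381731 counts on named genes. They fell into a positive and a negative set of 12 libraries each by the rank correlation of each gene's deviation with gene length (0.185 to 0.303 against -0.269 to -0.115), computed with the oxidative phosphorylation genes left out. The sets are a property of these libraries and not groups of the study. By this sorting shorter genes tend to be higher in the negative set. Each line held libraries of both: 1 of the 4 control libraries, 1 each of Δ133p53α2 and Δ133p53α8, and 3 each of Δ133p53α1, Δ133p53β5 and Δ133p53β10 belonged to the negative set. No 2 libraries of a line were copies, since the 36 pairs within lines had a chi-square per gene of 15.8 to 397. KRT8 and VIM, an epithelial keratin and the mesenchymal filament gene, were abundant (423 to 4367 and 1739 to 5175 CPM, counts per 1e6 reads scaled by the trimmed mean of M values, TMM). The keratin gene KRT18 was abundant as well (12037 to 58897 reads). The other epithelial genes KRT19, EPCAM and CDH1 had at most 4, 5 and 1 reads in any library. The mesenchymal genes CDH2 and FN1 had 282 to 1157 and 40 to 535 reads. The lung lineage genes NKX2-1, SFTPB and SFTPC were at most 0.578 CPM, and PTPRC, the leukocyte marker, was at 0 reads in all 24 libraries, which allows up to 3 reads per library by counting error alone.

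The share of counts on the nuclear genes followed the set of the library in every line, and the mitochondrial share did not. The 74 nuclear genes took 0.813% to 1.68% of all counts and the 13 mitochondrial genes 3.28% to 6.99%. In the control line the nuclear share was 1.28%, 0.851%, 0.851% and 0.891% in replicates 1 to 4. In Δ133p53α1 it was 0.849%, 1.25%, 1.40% and 1.34%, and in Δ133p53β10 it was 0.906%, 1.40%, 1.68% and 1.51%. The odd library of each of these lines was the one of the other set. Over all lines the share was 0.813% to 0.987% in the positive set and 1.23% to 1.68% in the negative set, with no overlap. Cytosolic ribosomal protein genes moved the same way, with 5.48% to 7.41% of counts in the positive set and 8.95% to 13.5% in the negative set. The mitochondrial share overlapped between the sets (4.04% to 5.67% against 3.28% to 6.99%). By line it was 5.21% ± 0.31 in control and 3.95% ± 0.39 in Δ133p53β5 (SD, n = 4), with the other clones between 4.33% and 5.61%. In bulk RNA, fewer cells and less RNA per cell cannot be told apart.

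**Figure D1:**
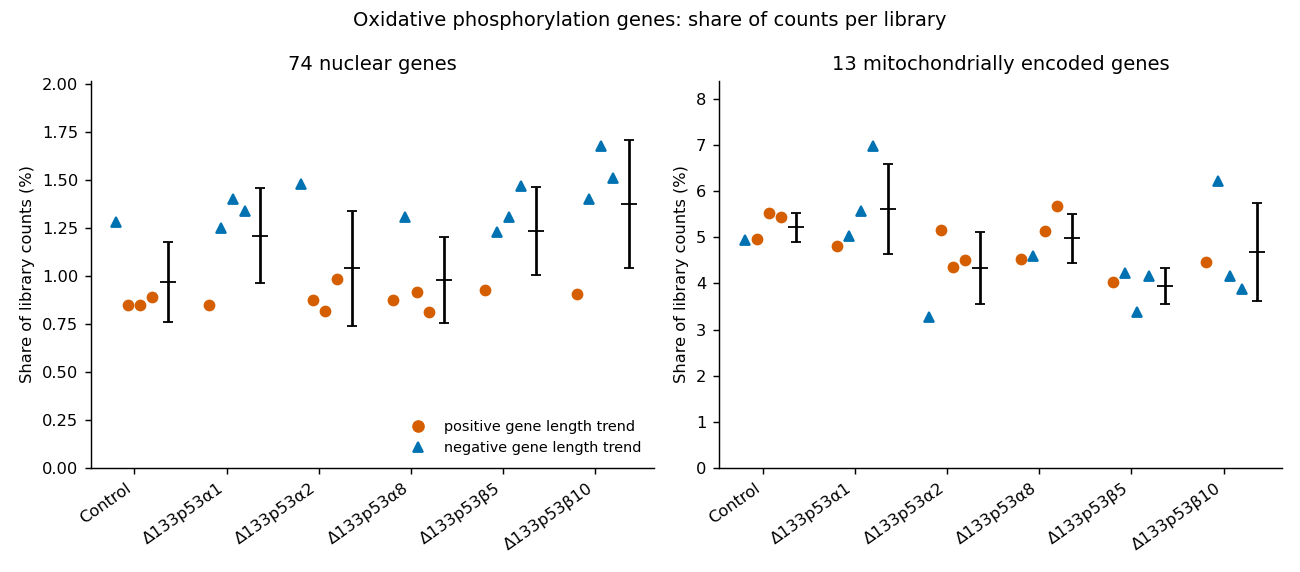
Share of library counts (%) on the 74 nuclear and the 13 mitochondrial genes by line. Each point is a library, circles for the positive and triangles for the negative set, and the bar beside each line is the mean ± SD of its 4 libraries. Every triangle of the nuclear panel lies at 1.23% or above and every circle at 0.987% or below, while the 2 sets overlap in the mitochondrial panel.

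The set difference ran through 4 of the 5 complexes and was smallest in complex II. Averaged over the 6 lines, the median nuclear gene was 0.98 higher in the negative set on the log2 scale, against 0.0 for all 17990 genes tested. Every library of the negative set exceeded every library of the positive set for 45 of 73 nuclear genes, where 6.71% of all genes did so. The median difference was 1.15 for complex IV, 1.00 for complex I, 0.93 for complex III and 0.86 for complex V, but 0.26 for complex II, whose 4 genes all overlapped between the sets. ATP5F1D, the δ subunit of the ATP synthase, moved by 1.83 (29.7 to 60.5 CPM against 89.6 to 355 CPM). COX8A, a small complex IV subunit, moved by 1.62 (15.0 to 37.5 against 41.1 to 189 CPM). NDUFS1, the large iron-sulphur subunit of complex I, went the other way by -0.71 (89.2 to 120 against 37.6 to 121 CPM). The sets were not made by the study, and no test was run on this difference. Because the sets were sorted by the trend with gene length, a gene's length bears on its set difference. The members were set beside all genes and not beside genes of like length, and the part of length was not tested.

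Levels differed widely between subunits of one complex. On the scale of median CPM per kilobase of exon, ATP5F1B, the catalytic β subunit of the ATP synthase, reached 532 and COX6B1 of complex IV 469. The length joins all annotated exons of a gene, so it can exceed that of any single transcript and lower the level per kilobase. The highest of the other complexes were NDUFS5 at 210, UQCRH at 152 and SDHB at 58.8. The lowest of each complex were NDUFA7 at 0.19, SDHA at 0.537, ATP5MG at 1.55, COX6A1 at 5.95 and UQCR11 at 6.26. SDHA and SDHB are partners in one complex, so the gene models were examined. In the GENCODE version 44 annotation SDHA shared 21.7% of its exonic bases with another gene on the same strand and NDUFA7 32.5%. Of the 10 nuclear genes with the lowest level per kilobase 7 shared at least 10% of their exonic bases in this way, and of the other 64 genes 7 did. COX8A shared 35.4% and still had 79.6 CPM per kilobase. How reads on overlapping genes were counted is not given in the sources used here and its part in these levels was not tested, so these genes' levels are uncertain. NDUFA7 had 1 to 19 reads per library and was the only member not tested.

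Each of the 13 mitochondrial genes lay above the highest nuclear gene on the scale of CPM per kilobase. MT-CO3, MT-CO2 and MT-CO1, the core subunits of complex IV, stood at 10060, 8201 and 6951 CPM per kilobase, and MT-ATP6 at 6422. MT-ND5 and MT-ND6 were lowest at 821 and 886. MT-ND6 is the only one of these genes on the light strand. MT-CO1 alone took 14.4% to 28.6% of the reads on the 13 genes and MT-CO3 13.4% to 22.2%.

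Against control, at most 8 of 73 nuclear subunit genes passed the test in any of the comparisons. Tests were edgeR quasi-likelihood tests over all 17990 genes with Benjamini-Hochberg adjustment, called at an adjusted p under 0.05, and all comparisons with control share the same 4 control libraries. No nuclear gene was called in Δ133p53α1, Δ133p53α2 or Δ133p53α8, where 2.04%, 2.16% and 1.9% of all genes were called higher and 2.71%, 2.96% and 2.48% lower. At an unadjusted p under 0.05 there were 22 higher and 1 lower in Δ133p53α1, 2 and 1 in Δ133p53α2, and 0 and 2 in Δ133p53α8. DESeq2 called 1 higher and 1 lower in Δ133p53α1 and 1 lower in each of the other α clones, and limma voom called 0 in all 3. In Δ133p53β5 1 nuclear gene was called higher (3.9% of all genes), and in Δ133p53β10 5 were (4.82% of all genes), 2 of them past a log2 fold change of 1.5 (1.9% of all genes). In neither was a nuclear gene called lower (5.62% and 5.08% of all genes), and 0 were lower at an unadjusted p under 0.05, by DESeq2 or by limma voom. In Δ133p53β10 the number called higher was 15 by DESeq2, 4 by limma voom, 42 at an unadjusted p under 0.05 and 0 in fits of 2 groups at a time. Without its replicate 1 it was 26, without control replicate 1 it was 17, and without control replicate 2 it was 0. Over all genes, fits with 1 library left out called 1054 to 3047 in either direction in Δ133p53β10. Alternatives other than leaving out 1 library called up to 3439 of all genes there, so these counts may follow that background. The share of all genes at an unadjusted p under 0.05 is not given here. Within the positive set, fitted after seeing the data, 2 nuclear genes were called in Δ133p53α2 and 3 in Δ133p53α8. That set holds 3 libraries each of control and of these 2 clones but 1 of each β clone, so its counts cannot order the clones. In the mean of the β clones 8 of 73 were called higher and 0 lower, where 6.84% and 9.03% of all genes were. By DESeq2 19 were higher and 1 lower, by limma voom 7 and 0, and 33 and 1 at an unadjusted p under 0.05. That count was 1 without control replicate 2 and without control replicate 3, 2 without control replicate 4, 19 without control replicate 1, 15 without Δ133p53α2 replicate 1 and 22 without Δ133p53β10 replicate 1. Over all genes, fits with 1 library left out called 1648 to 3962 in either direction in that mean. Alternatives other than leaving out 1 library called up to 4721 of all genes in it, so its counts may follow that background too. In the mean of the α clones 0 were called higher and 1 lower, where 2.56% and 4.42% of all genes were. At an unadjusted p under 0.05 that comparison had 3 higher and 1 lower, and DESeq2 and limma voom each called 0 higher and 1 lower.

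The median nuclear gene lay above control by 0.27 or more on the log2 scale in 4 of the 5 clones, and near control in Δ133p53α8. The median log2 fold change of the 73 nuclear genes was 0.68 (Δ133p53α1), 0.27 (Δ133p53α2) and 0.02 (Δ133p53α8) in the α clones, and 0.55 (Δ133p53β5) and 0.85 (Δ133p53β10) in the β clones. The median of all genes was between -0.05 and 0.03. Leaving out 1 library turned the median in Δ133p53α2, to -0.11 without its replicate 1, and in Δ133p53α8, to -0.18 without its replicate 2. In Δ133p53β10 it was 0.53 without replicate 3. Lines with 3 libraries of the negative set had the 3 largest medians, whereas control had 1. When the set entered the model the medians were 0.17, 0.22, 0.02, 0.07 and 0.30. In the mean of the β clones the median went from 0.69 to 0.17, while 7 genes were called higher in place of 8, where 7.9% of all genes were called higher and 11.5% lower. Without the set term, complex IV showed the largest median in the β clones (0.85, 11 of 11 genes above 0) and complex II the smallest (0.14, 4 of 4 above 0). No gene of either complex was called. Complexes IV and II also had the largest and smallest median difference between the sets (1.15 and 0.26). Medians by complex with the set as a term are not given here.

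**Figure D2:**
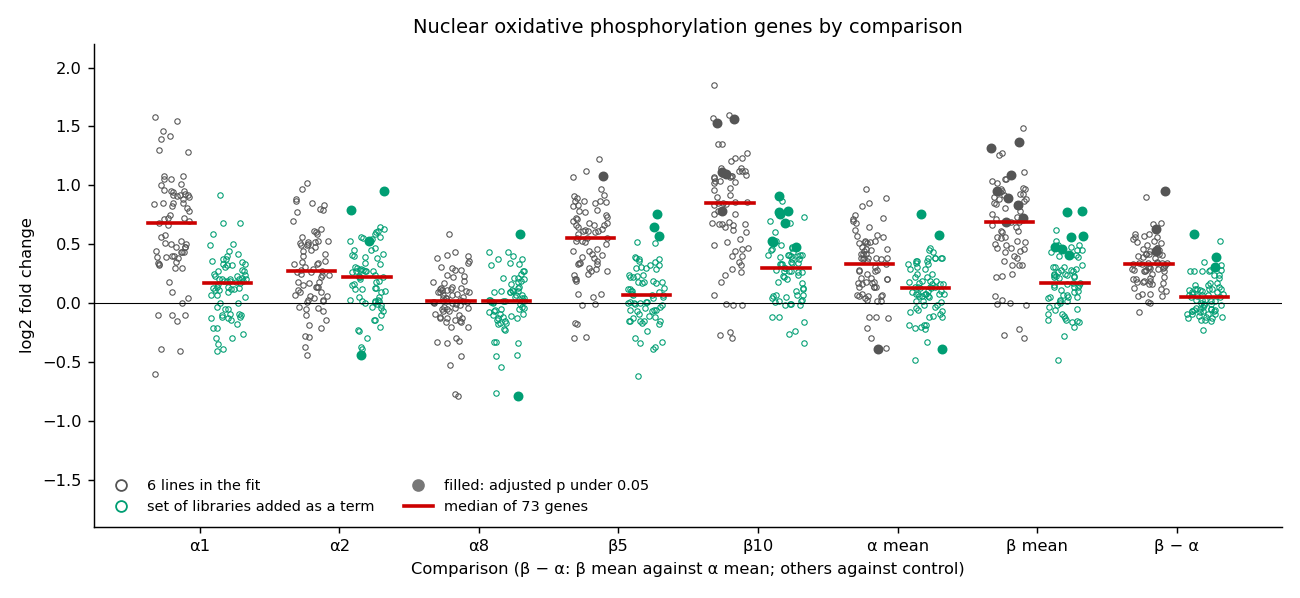
log2 fold change of each of the 73 tested nuclear genes in the 8 comparisons. Grey circles come from the fit of the 6 lines and green circles from the model that also holds the set, filled circles have an adjusted p under 0.05, and red bars are medians. The median of the β clones falls from 0.69 to 0.17 with the set term.

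NDUFS4 had the most calls of the nuclear genes. It encodes an accessory subunit of complex I in the peripheral arm, and its RefSeq promoter window holds the YY1 motif after the start. In control it was at 39.6, 17.2, 25.5 and 20.6 CPM in replicates 1 to 4. In Δ133p53β5 it was at 36.0, 58.1, 54.1 and 69.7 CPM, and in Δ133p53β10 at 36.6, 48.6, 55.4 and 80.2 CPM. The α clones ranged from 25.1 to 51.7 CPM. The highest control library, replicate 1, and the lowest β libraries, replicate 1 of each clone, were those of the other set than the rest of their line, and only these overlapped.

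NDUFS4 rose in the mean of the β clones by 1.09 on the log2 scale (SE 0.254, adjusted p = 0.00497, edgeR). The rise was 1.08 in Δ133p53β5 (adjusted p = 0.016) and 1.10 in Δ133p53β10 (adjusted p = 0.0151). With the set as a term the mean of the β clones was 0.77 above control (adjusted p = 0.00107). Leaving out any of the 24 libraries kept the call for the mean of the β clones, with log2 fold changes of 0.94 to 1.38. The call in Δ133p53β5 was lost without control replicate 2 (adjusted p = 0.0628), control replicate 4 (0.0538) or Δ133p53β5 replicate 4 (0.0512). That in Δ133p53β10 was lost without control replicate 2 (0.058), control replicate 4 (0.0511) or Δ133p53β10 replicate 4 (0.0635). With the library of uncertain clone counted in Δ133p53β10 the values were 0.94 in Δ133p53β5 (adjusted p = 0.0486) and 1.18 in Δ133p53β10 (adjusted p = 0.0052). In fits added after seeing the data, the mean of the β clones was 0.78 above control within the positive set (adjusted p = 0.0374) and 0.64 above within the negative set (adjusted p = 0.461), which held 1 control library.

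NDUFA1, a small membrane subunit of complex I encoded on the X chromosome, showed the same order. In control it was at 75.7, 34.5, 44.2 and 49.7 CPM, in Δ133p53β5 at 68.5, 112, 129 and 166 CPM, and in Δ133p53β10 at 65.5, 147, 205 and 170 CPM. The α clones ranged from 37.8 to 121 CPM. The β libraries other than replicate 1 lay above all control libraries. NDUFA1 rose by 1.37 in the mean of the β clones (SE 0.363, adjusted p = 0.0126, edgeR) and by 1.53 in Δ133p53β10 (adjusted p = 0.0179), which with UQCRQ made 2 nuclear calls beyond a log2 fold change of 1.5. In Δ133p53β5 it was 1.22 higher with an adjusted p of 0.0574. With the set as a term the mean of the β clones was 0.78 above control (adjusted p = 0.00135). Without control replicate 2 or 3 the adjusted p in the mean of the β clones was 0.0551 and 0.0519. In Δ133p53β10 the call was lost without control replicate 2 (0.0624), control replicate 3 (0.0605) or Δ133p53β10 replicate 3 (0.0618).

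The other calls in complexes I and III were near the threshold. NDUFB3 (0.69, adjusted p = 0.0402) and NDUFB1 (0.95, adjusted p = 0.0491), accessory subunits of the membrane arm of complex I, rose in the mean of the β clones. UQCRFS1, the Rieske iron-sulphur protein of complex III, rose by 0.83 (adjusted p = 0.0315), and UQCRQ, a small accessory subunit, by 1.32 (adjusted p = 0.0476). UQCRQ measured 147, 78.8, 60.6 and 85.5 CPM in control and 89.7, 243, 396 and 370 CPM in Δ133p53β10. It was at 318 CPM in Δ133p53α2 replicate 1, where the other 3 libraries of that clone were at 80.8 to 108 CPM. With the library of uncertain clone counted in Δ133p53β10, UQCRQ (adjusted p = 0.0644) and NDUFB1 (0.0582) were no longer called in that mean. With 1 library left out UQCRQ and NDUFB1 passed in 8 of 24 fits each, NDUFB3 in 14 and UQCRFS1 in 18. With the set as a term UQCRQ (0.57, adjusted p = 0.0484), UQCRFS1 (0.48, 0.0268) and NDUFB1 (0.46, 0.0297) were called and NDUFB3 (0.49, 0.06) was not.

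NDUFB1 was not called in the α clones by the fit of the 6 lines but was called with the set as a term. In control it was at 67.2, 35.7, 35.1 and 33.4 CPM, and in Δ133p53α2 at 118, 49.3, 51.5 and 78.7 CPM. In the fit of the 6 lines it was 0.75 higher in the mean of the α clones with an adjusted p of 0.161. After the set entered the model it was 0.58 above control (adjusted p = 0.00405, where 5.46% of all genes were called higher and 8.45% lower), against 0.46 in the mean of the β clones.

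UQCRC2 was the only nuclear gene called lower. It encodes a core subunit of complex III on the matrix side and was at 155, 178, 148 and 162 CPM in control. The α clones ranged from 109 to 152 CPM, with 1 library, Δ133p53α8 replicate 3, inside the range of control. It fell by 0.39 on the log2 scale in the mean of the α clones (SE 0.113, adjusted p = 0.0373, edgeR) and was 0.27 lower in the mean of the β clones with an adjusted p of 0.127. After adding the set the α value was -0.39 (adjusted p = 0.0141). With 1 library left out the call held in 15 of 24 fits, with an adjusted p of up to 0.162.

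In the ATP synthase 2 genes were called in the β clones. ATP5F1C, the γ subunit of the rotor, was at 191, 153, 98.0 and 124 CPM in control, at 157, 239, 247 and 251 CPM in Δ133p53β5 and at 182, 255, 269 and 267 CPM in Δ133p53β10. It rose by 0.72 in the mean of the β clones (SE 0.222, adjusted p = 0.0301), and by 0.41 with the set as a term (adjusted p = 0.029). ATP5MG, a subunit of the membrane part, rose by 0.89 (adjusted p = 0.0315), from 6.80 to 16.0 CPM in control to 11.9 to 28.9 CPM in the β clones. Both calls were lost without control replicate 2 (adjusted p of 0.0569 for ATP5F1C and 0.106 for ATP5MG), replicate 3 (0.133 and 0.132) or replicate 4 (0.0905 and 0.0869). ATP5F1C was also lost without Δ133p53β5 replicate 2 (0.0506) or 3 (0.0504), and ATP5MG without Δ133p53β5 replicate 4 (0.0521) or Δ133p53β10 replicate 3 (0.0562).

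**Figure D3:**
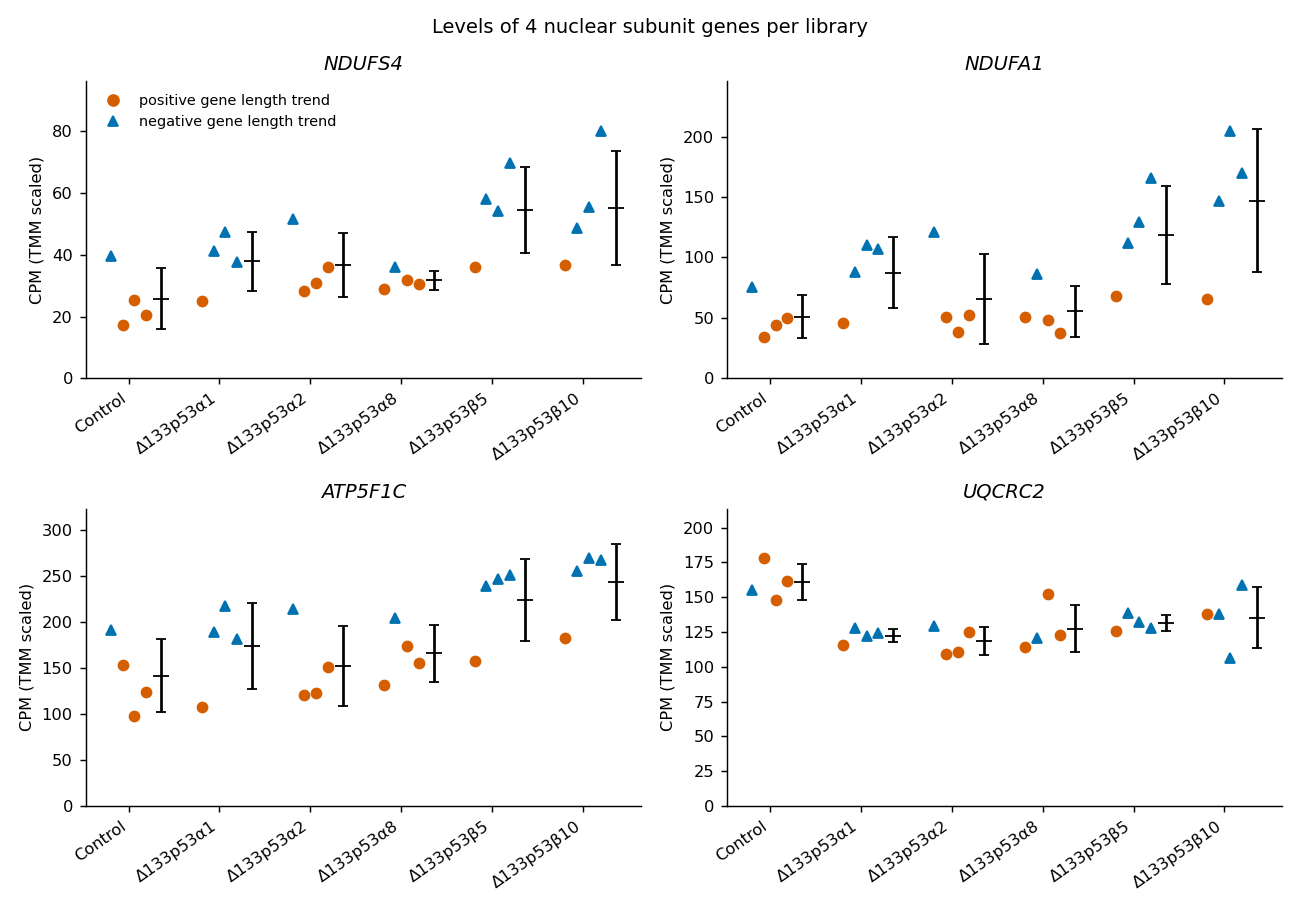
CPM (TMM scaled, linear axis from 0) of NDUFS4, NDUFA1, ATP5F1C and UQCRC2 in each library by line, with circles for the positive set, triangles for the negative set and bars for the mean ± SD of 4 libraries. In NDUFS4 the β clones reach 80.2 CPM where control reaches 39.6, and in each β clone the single circle is the lowest point of NDUFS4, NDUFA1 and ATP5F1C.

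Compared directly, the β clones exceeded the α clones in 3 nuclear genes, where 2.75% of all genes were called higher and 2.68% lower. NDUFA1 was higher by 0.95 (SE 0.25, adjusted p = 0.0257), NDUFS4 by 0.63 (SE 0.178, adjusted p = 0.0378) and ATP5PB, the b subunit of the ATP synthase stalk, by 0.44 (SE 0.129, adjusted p = 0.047). ATP5PB was at 169 to 228 CPM in the 12 α libraries and at 215 to 447 CPM in the 8 β libraries. The value of 447 CPM was Δ133p53β10 replicate 4, and without that library the direct comparison had 0 calls, as it had without Δ133p53β5 replicate 3 or Δ133p53β5 replicate 4. The median of the 73 genes was 0.33, and 0.05 with the set as a term, when NDUFA1 (0.59, adjusted p = 0.00132), NDUFS4 (0.39, 0.027) and ATP5F1C (0.31, 0.0383) were called, where 5.04% of all genes were called higher and 5.18% lower. With the library of uncertain clone counted in Δ133p53β10, 1 nuclear gene was called, and the adjusted p was 0.0505 for NDUFS4 and 0.0722 for ATP5PB.

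Of the 13 mitochondrial genes 1 was called against control. Their median log2 fold change was 0.54 (Δ133p53α1), -0.08 (Δ133p53α2) and 0.06 (Δ133p53α8) in the α clones, and -0.11 (Δ133p53β5) and 0.17 (Δ133p53β10) in the β clones. The median in Δ133p53α1 was -0.05 within the positive set, which holds 1 library of that clone, and 0.41 to 0.63 under the other alternatives that keep all replicates or the negative set. The gene called was MT-CO1, the catalytic subunit of complex IV. It was at 10992, 12251, 11534 and 12310 CPM in control, at 8194, 8868, 6888 and 7855 CPM in Δ133p53β5 and at 9491, 11348, 7990 and 7452 CPM in Δ133p53β10. Every Δ133p53β5 library lay below every control library, and 1 of the 4 Δ133p53β10 libraries overlapped.

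MT-CO1 fell by 0.57 in Δ133p53β5 (SE 0.174, adjusted p = 0.0425) and by 0.47 in the mean of the β clones (SE 0.148, adjusted p = 0.0336, edgeR), where 5.62% and 9.03% of all genes were called lower. In fits of 2 groups at a time MT-CO1 was not called (adjusted p = 0.0723 and 0.0758), and MT-ND5 was, at -1.10 in Δ133p53β5 (adjusted p = 0.0185) and -0.88 in the mean of the β clones (adjusted p = 0.0391). MT-CO1 was at -0.40 in the mean of the β clones with the set as a term (adjusted p = 0.0543). With 1 library left out the call in the mean of the β clones held in 19 of 24 fits. It was lost without control replicate 2 (adjusted p = 0.0916), 3 (0.0621) or 4 (0.0878), Δ133p53β5 replicate 3 (0.0666) or Δ133p53β10 replicate 4 (0.0588). In Δ133p53β5 it held in 15 of 24, and the adjusted p was 0.0794 with the library of uncertain clone moved to Δ133p53β10 and 0.0833 without it. In Δ133p53α1 5 mitochondrial genes were higher at an unadjusted p under 0.05 and 0 after adjustment, while DESeq2 called 3 and limma voom 0. Without Δ133p53α1 replicate 1, the only library of the positive set in that clone, 5 mitochondrial and 16 nuclear genes were called. Over all 17990 genes, fits with 1 library left out called 452 to 4095 in Δ133p53α1, so these counts may follow that background.

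Within the 13 mitochondrial genes MT-ND4L set the libraries of both sets apart. MT-ND4L, a small complex I subunit whose reading frame runs into that of MT-ND4 on the same RNA, was at 802 to 1890 CPM in the positive set and at 119 to 566 CPM in the negative set. This was the only mitochondrial gene without overlap between the sets and 2.03 lower in the negative set, where 5.99% of all genes had every negative library below every positive one. The count of MT-ND4L per 100 MT-ND4 reads was 16.1 to 35.1 in the positive set and 2.13 to 12.8 in the negative set. MT-ATP8, which overlaps MT-ATP6 by 22.2% of its length, was at 10.8 to 29.2 per 100 MT-ATP6 reads in the positive set and at 4.07 to 20.1 in the negative set. MT-ND5 was 0.92 lower in the negative set. Within each pair both genes lie on one RNA, and how reads in their shared bases were counted is not given in the sources used here.

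**Figure D4:**
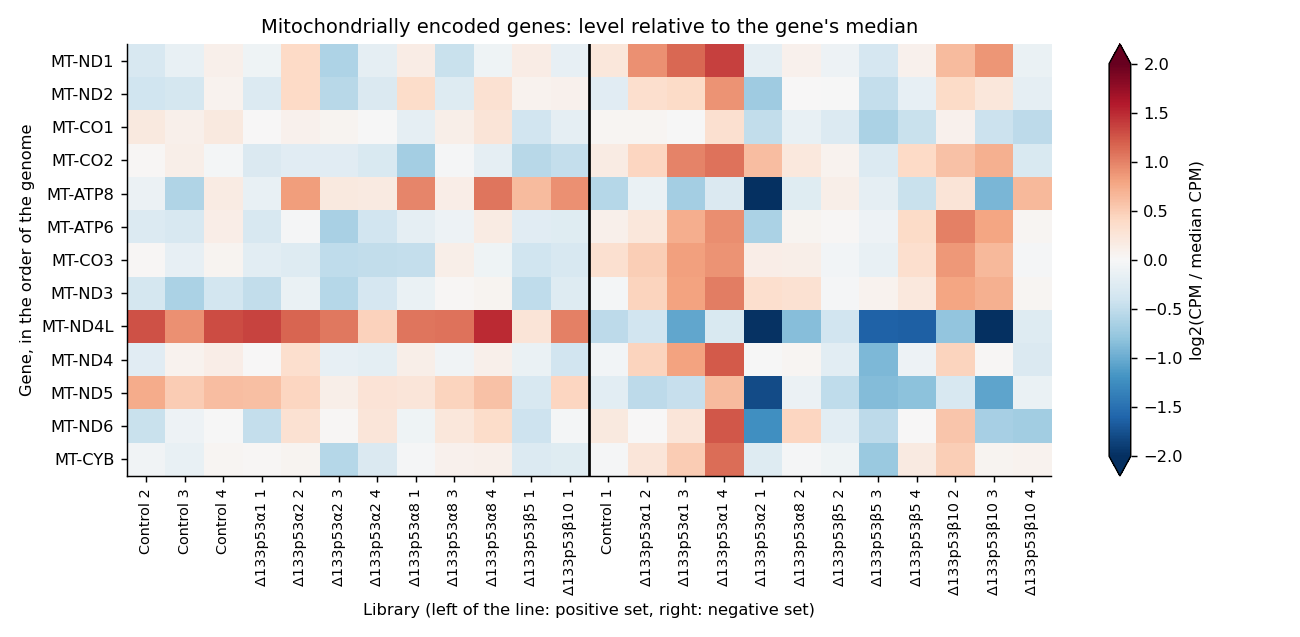
Level of the 13 mitochondrial genes in the 24 libraries as log2 of CPM over the gene's median CPM (red above, blue below, colours capped at -2 and 2). Libraries of the positive set stand left of the line. MT-ND4L is red in the 12 libraries on the left and blue in the 12 on the right.

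Copies of mitochondrial genes in the nuclear genome were examined because they can take or give reads. A block on chromosome 1 holds 7 such copies with 96.5% to 98.6% identity to the mitochondrial genes. A stretch of 60 bases of MTND2P28 (chr1:630069-630128, plus strand, hg38) and the matching bases of MT-ND2 (chrM:4899-4958, plus strand) are shown because this copy set 1 line apart. Capitals mark the 4 bases that differ.
MTND2P28: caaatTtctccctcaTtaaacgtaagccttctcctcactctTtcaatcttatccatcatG
MT-ND2: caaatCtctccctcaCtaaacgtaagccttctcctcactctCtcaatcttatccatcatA

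MTND2P28 had 554, 719, 952 and 1642 reads in Δ133p53α1 replicates 1 to 4 and 14 to 92 reads in each of the other 20 libraries, with no overlap. It rose by 4.17 in Δ133p53α1 (adjusted p = 7.12e-06, edgeR), and leaving out any library kept this call with log2 fold changes of 3.71 to 4.41. MT-ND2 itself was at 1631, 2486, 2575 and 3673 CPM in Δ133p53α1 and at 1492 to 2060 CPM in control. Of the windows of 100 bases in MTND2P28, 26.1% are identical to MT-ND2, so reads cannot always be placed. The handling of reads with several matches is not given in the sources used here, and both levels are uncertain.

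Other copies stood apart in single libraries rather than in lines. MTCO1P12, the copy of MT-CO1, had 1509 and 2851 reads in control replicates 2 and 3 but 235 and 252 in replicates 1 and 4. It had 1861 reads in Δ133p53α1 replicate 4, 1596 in Δ133p53α2 replicate 1, 1708 in Δ133p53β5 replicate 4 and 772 in Δ133p53α8 replicate 4, and 124 to 248 in the remaining libraries of the clones. MTATP6P1, the copy of MT-ATP6, had 2385 reads in Δ133p53β10 replicate 4, 900 in Δ133p53α1 replicate 2, 506 in Δ133p53α2 replicate 1 and 110 in Δ133p53α8 replicate 4, and 8 to 39 elsewhere. These counts were small beside those of MT-CO1 and MT-ATP6.

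Other genes that serve the chain were given by lists chosen for their function. The counts of each list in the mean of the β clones stand beside 6.84% of all genes called higher and 9.03% lower. Of 50 assembly factors 8 were called higher and 0 lower there, with a median of 0.45, and 0 in the mean of the α clones, with a median of 0.27. TMEM126A and TMEM126B, which help to build the membrane arm of complex I, rose by 1.05 (adjusted p = 0.00355) and 0.87 (adjusted p = 0.00759). NDUFAF2, NDUFAF3, NDUFAF4 and NDUFAF5, complex I assembly factors as well, rose by 0.80 (adjusted p = 0.0249), 1.28 (0.0358), 0.97 (0.0133) and 0.85 (0.00769). NDUFAF3 was 1.13 higher in the negative set of libraries, with no overlap between the sets. CMC1 (0.70, adjusted p = 0.00445), a complex IV factor, and ATPAF1 (0.39, 0.045), an ATP synthase factor, completed the 8. With the set as a term 9 assembly factors were called higher, with a median of 0.24, where 7.9% of all genes were called higher and 11.5% lower. TMEM126A kept its call in the mean of the β clones in 24 of 24 fits with 1 library left out.

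Of 29 genes of mitochondrial DNA upkeep, transcription and RNA stability 2 were called higher in the mean of the β clones, a share near the 6.84% of all genes. SLIRP, which stabilises mitochondrial messenger RNA, rose by 1.32 (adjusted p = 0.0144) and TEFM, the transcription elongation factor, by 0.62 (adjusted p = 0.0272). SLIRP was not called without control replicate 2 (0.0584) or 3 (0.0731). Among 11 tested regulators of mitochondrial biogenesis MYC was 0.54 lower in the β than in the α clones (adjusted p = 0.0344). The mitochondrial ribosomal RNA MT-RNR2 fell by 0.85 in the mean of the β clones (adjusted p = 0.00408), a call lost without control replicate 3 (0.0521), which held 4516 CPM where the other control libraries held 2317 to 2399 CPM. Of 76 mitochondrial ribosomal protein genes 10 were called higher in the mean of the β clones (median 0.56), where 6.84% of all genes were. Of these 76 genes 71 were higher in the negative set of libraries, 31 of them with no overlap. Of all genes 6.71% had every negative library above every positive one. MRPL14 and MRPL54 passed a log2 fold change of 1.5 in Δ133p53β10 (1.56, adjusted p = 0.041, and 1.95, adjusted p = 0.0464). Both separated the sets with no overlap (1.25 and 1.6 higher in the negative set). Δ133p53β10 held 3 libraries of the negative set and control 1, and no value with the set as a term is given for these genes. MRPL54 had 284, 527, 1339 and 2013 reads in Δ133p53β10 replicates 1 to 4. Of 77 cytosolic ribosomal protein genes 9 were called higher in the mean of the β clones (median 0.78). Of these 77 genes 63 separated the sets with no overlap, beside the same 6.71% of all genes. The counts of called ribosomal protein genes come from the fit without the set as a term, so the part of the sets cannot be read from them. The sets were sorted by the trend with gene length, and the part of length in these genes was not tested.

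Respiratory chain genes outside the rule gave 2 calls in the β clones, where 6.84% of all genes were called higher in their mean. They were ATP5MJ (1.27, adjusted p = 0.021) of the ATP synthase and ETFA (0.47, adjusted p = 0.0326) of the electron transfer flavoprotein. COX7B2, a COX7B paralogue, rose by 1.19 in the mean of the α clones (adjusted p = 0.019), where 2.56% of all genes were called higher. COX7B2 was not called without control replicate 2 (0.0847), 3 (0.0901) or 4 (0.0741). In the citric acid cycle FH, fumarase, rose in both means (0.52, adjusted p = 0.0167, and 0.67, adjusted p = 0.00202) and IDH3G in the β clones (1.29, adjusted p = 0.0269), 2 of 14 genes. Of 25 glycolysis and lactate genes 2 rose and 3 fell in the mean of the β clones, near the 6.84% and 9.03% of all genes. SLC2A3, the glucose transporter GLUT3, was at 17.9 to 23.5 CPM in the 8 β libraries and at 30.2 CPM or more in the α libraries. SLC2A3 was at 32.2 to 137 CPM in control. It fell by 1.64 in the mean of the β clones (adjusted p = 0.000166) and was 0.99 lower in the β than in the α clones (adjusted p = 0.00545). The call against control held in 24 of 24 fits with 1 library left out, with log2 fold changes of -1.86 to -0.98. In control SLC2A3 had 1280, 1007, 3657 and 760 reads in replicates 1 to 4. LDHB, a lactate dehydrogenase subunit, rose by 1.74 in Δ133p53β10 (adjusted p = 0.0398). ATP5MJ, LDHB and IDH3G were 1.11, 1.16 and 0.97 higher in the negative set of libraries, ATP5MJ with no overlap. No values with the set as a term are given for them.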

How the data were processed

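RNA was enriched for poly(A) tails, made into strand-specific libraries and sequenced by the authors, who aligned reads to GRCh38 with HISAT2 and deposited whole-number counts per gene from featureCounts. The handling of multiply matching reads is not given in the sources used here. Counts of 24 libraries were taken as deposited, and blank gene names were left out. Genes were kept by edgeR's expression filter (17990 of 60563) and scaled by TMM. A quasi-likelihood model of the 6 lines (edgeR 4.0.16, R 4.3.3, 18 residual degrees of freedom) gave 8 comparisons, and p-values were adjusted by Benjamini-Hochberg over all tested genes, with 0.05 as the threshold. DESeq2 1.42.0 and limma 3.58.1 were alternatives. Genes were named when called in a comparison, and genes of the other lists also when past a log2 fold change of 1.5. Members and lists were chosen with earlier results of these data known. Overlaps used GENCODE 44 on hg38. The main test was also run on simulated counts drawn without the sets of libraries, so that run cannot show how the test behaves where the sets differ. Intervals of counting error do not cover differences between cultures. The level of the introduced gene is not reported here.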

Additional observations from a re-analysis of the deposited data

Results flagged for a closer look

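Within each line of 4 libraries, a library was picked out when its gap to the nearest other exceeded Dixon's 95% critical share of the range. Chance alone gives about 1 in 20 groups, and 20 of 168 groups examined were picked out. The nuclear share of 1.28% in control replicate 1 stood against 0.851% to 0.891% in the other 3 control libraries. ATP5F1C was low in Δ133p53β5 replicate 1 (157 CPM) and Δ133p53β10 replicate 1 (182 CPM). NDUFA1 (121 CPM) and UQCRQ (318 CPM) were high in Δ133p53α2 replicate 1. NDUFB1 was high in control replicate 1 (67.2 CPM) and in Δ133p53α8 replicate 2 (103 CPM), where UQCRQ was at 184 CPM. Each of these libraries was the single one of its set in its line.

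Among mitochondrial genes, MT-CO1 was at 13443 CPM in Δ133p53α1 replicate 4, MT-CO2 at 8600 CPM in Δ133p53α2 replicate 1, MT-ND4L at 1725 CPM in Δ133p53α1 replicate 1 and MT-ND4 at 2933 CPM in Δ133p53β5 replicate 3. MTCO1P12 was high in Δ133p53α1 replicate 4 (101 CPM), Δ133p53α2 replicate 1 (91.2 CPM), Δ133p53α8 replicate 4 (32.2 CPM) and Δ133p53β5 replicate 4 (87.7 CPM). MTATP6P1 was high in Δ133p53α1 replicate 2 (45.7 CPM), Δ133p53α2 replicate 1 (28.9 CPM), Δ133p53α8 replicate 4 (4.58 CPM) and Δ133p53β10 replicate 4 (99 CPM).

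The β and α clones differed by the test of the difference itself in ATP5PB (0.44 on the log2 scale), NDUFS4 (0.63), NDUFA1 (0.95), MTND2P28 (-1.68) and SLC2A3 (-0.99).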

How the results depend on the processing

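No called member changed direction in its called comparison under any of the alternatives run. Nor did MTND2P28, COX7B2, TMEM126A, SLC2A3, SLIRP or MT-RNR2. Such ranges are not given for the other named genes of the lists. The median of the nuclear genes turned in Δ133p53α2 (-0.11 to 0.53) and Δ133p53α8 (-0.18 to 0.26) with 1 library left out. Counts of called genes are given for the nuclear genes unless mitochondrial genes are named. Over all genes, alternatives other than leaving out 1 library called up to 1973, 2170 and 2033 in Δ133p53α1, Δ133p53α2 and Δ133p53α8. They called up to 2920 in Δ133p53β5 and 3439 in Δ133p53β10. The highest were 2503 and 4721 in the means of the α and β clones and 1838 between β and α. The counts below may follow that background. DESeq2 called 2, 1 and 1 in the clones Δ133p53α1, Δ133p53α2 and Δ133p53α8, 4 in Δ133p53β5, 15 in Δ133p53β10, 20 in the mean of the β clones and 5 between β and α, and 3, 2 and 1 mitochondrial genes in Δ133p53α1, Δ133p53β5 and between β and α. With the length and GC trend removed the counts were 1, 2, 1, 4, 14, 3 (mean of the α clones) and 14 (mean of the β clones), and 1, 2, 3 and 1 mitochondrial genes in Δ133p53α1, Δ133p53β5, the mean of the β clones and between β and α. With the set as a term they were 4 in Δ133p53α2, 2 in Δ133p53α8, 3 in Δ133p53β5, 8 in Δ133p53β10 and 3 in the mean of the α clones, and 0 mitochondrial genes in the mean of the β clones. Within the positive set, a fit added after seeing the data, they were 2 in Δ133p53α2, 3 in Δ133p53α8, 2 in the mean of the β clones and 0 in Δ133p53β5, in Δ133p53β10 and between β and α. Within the negative set, added likewise, all were 0. The 2 sets also gave 0 mitochondrial genes in Δ133p53β5 and in the mean of the β clones, and both fits hold fewer libraries. A mean of at least 1 CPM gave 1 in Δ133p53α2 and 3 in Δ133p53β10, and limma voom 2 in Δ133p53β5. Fits of 2 groups at a time gave 2 in Δ133p53β5, 0 in Δ133p53β10, 0 in the mean of the α clones and 3 in the mean of the β clones. A log2 fold change of 1.5 left 2 in Δ133p53β10 and 0 elsewhere. Without a filter the mean of the α clones had 0 and the difference between β and α 1, with 0 mitochondrial genes. With the uncertain library in Δ133p53β10 that clone had 11 and the difference 1, with 0 mitochondrial genes in Δ133p53β5.

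Replicate numbers did not pair the libraries: 22 of 60 pairs with the same number had a correlation over 0.1 (-0.886 to 0.893), and 2 of 24 libraries correlated best with their own number. With the replicate block the counts were 3 in Δ133p53β10, 0 in the mean of the α clones, 2 in the mean of the β clones and 0 between β and α, and 0 mitochondrial genes in Δ133p53β5.

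Leaving out 1 library gave 0 to 16 nuclear genes in Δ133p53α1, 0 to 1 in Δ133p53α2 and 0 in Δ133p53α8. It gave 0 to 8 in Δ133p53β5, 0 to 26 in Δ133p53β10, 0 to 1 in the mean of the α clones, 1 to 22 in the mean of the β clones and 0 to 6 between β and α. For mitochondrial genes it gave 0 to 5, 0, 0, 0 to 2, 0 to 1, 0, 0 to 3 and 0 to 1. Over all 17990 genes it gave 452 to 4095, 648 to 1015, 488 to 932 and 1053 to 2030 in the first 4 clones. It gave 1054 to 3047 in Δ133p53β10, 854 to 1617 and 1648 to 3962 in the means, and 695 to 1242 between β and α. The highest count in Δ133p53β10 was without its replicate 1, and in Δ133p53β5 without control replicate 1. The median SD between libraries of a line, 0.52 for nuclear and 0.281 for mitochondrial genes on the log2 scale, limits what 4 libraries can resolve.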

Other observations

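Per 100 reads on the 13 mitochondrial genes, the median library had 22.1 on MT-CO1, 17.8 on MT-CO3, 12.6 on MT-CO2 and 11.9 on MT-ND4, and 0.983 on MT-ND6. Of the 74 nuclear genes, 33 were at 100 CPM or more and 9 below 10 CPM in the median library.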
